A study of Mus musculus with 3 samples.

Results

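The 10 genes described here encode regulators of Hox and progenitor chromatin in leukemia: Ezh1, Ezh2, Eed, Suz12 and Jarid2 of Polycomb repressive complex 2 (PRC2), Bmi1 of PRC1, Asxl1 and Asxl2 of the Polycomb deubiquitinase PR-DUB, the histone methyltransferase Dot1l, and Men1, which encodes menin. They were taken by symbol from the deposited expression table, where each had 1 row, and are 10 of 28074 named genes. Transcripts were measured by RNA sequencing in 3 primary acute myeloid leukemias that form 1 group with the genotype miR196b-/-Dnmt3afl/fl,Flt3ITD/ITD,Mx1Cre, called BKO AML in the labels. All 3 leukemias therefore lacked the microRNA miR-196b, carried floxed Dnmt3a alleles with Mx1Cre, a recombinase under an interferon-inducible promoter that acts in blood cells but also elsewhere, and carried the internal tandem duplication of the receptor gene Flt3 on both alleles. The sample titles give Dnmt3a+/- instead, so the labels do not settle how many Dnmt3a copies were lost. Each leukemia was harvested from the spleen of its own moribund mouse, whose age and sex the labels do not give, and cells bearing c-Kit, a receptor of immature blood cells, were enriched on magnetic beads. The numbers 1 to 3 name the mice in accession order and carry no other meaning.

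The comparison that the study intended, with leukemias of the same background that keep miR-196b, could not be described from these samples: the control columns of the table hold samples of a different series and were left out. No difference from a control, and no test between groups, is therefore given. Values are TPM, a transcript abundance per length that is scaled to a fixed total in each library, so levels of different genes can be set side by side. Sequencing depth is unknown beyond the 30000000 reads that the labels plan for each library, and the error given is the SD between the 3 mice. In bulk RNA, more cells that express a gene and more transcript per cell cannot be told apart.

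PRC2 places methyl groups on lysine H3K27, a mark of repressed genes. Ezh1 and Ezh2 are its alternative catalytic subunits, Eed reads the mark and stimulates the enzyme, Suz12 holds the core together, and Jarid2 is an accessory subunit that helps to recruit it. PRC1, in which Bmi1 partners the ubiquitin ligases Ring1 and Rnf2, ubiquitinates histone H2A, and PR-DUB, built on Bap1 with an Asxl protein, removes that ubiquitin. Dot1l methylates H3K79 and menin tethers the H3K4 methyltransferases of the MLL family, both known as supports of Hoxa and Meis1 transcription in leukemia with MLL rearrangements, and Polycomb complexes are known as repressors of the same loci and of the cell cycle inhibitors Cdkn2a and Cdkn2b.

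Because the mice lack miR-196b, the members were searched for matches to its seed, bases 2 to 8, which guide a microRNA to its target. The seed is shown in capitals in the mature sequences of miR-196b and of its relative miR-196a, which is encoded elsewhere and shares the seed. Positions are counted from 1 at the 5′ end, and the only difference between the sequences was C12A, the base of miR-196b being first. The sequences are those of RefSeq on GRCm38.p6.
miR-196b-5p: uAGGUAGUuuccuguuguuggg
miR-196a-5p: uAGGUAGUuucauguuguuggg

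In the longest annotated 3′ untranslated region (UTR) of each gene in GENCODE M21, on the strand of the transcript, the letters ACTACCT (a match to bases 2 to 8) or CTACCTA (a match to bases 2 to 7 followed by A) were searched for. These motifs overlap by 6 letters and an overlapping pair counts once. A match was found in 3 of the 10 members, Ezh2, Dot1l and Asxl2, with 1 match each. They are shown because they are the places where the deleted microRNA could pair with these transcripts by its seed, with the match in capitals.
Ezh2, chr6:47530529-47530535, minus strand: catctACTACCTcttccccttctctctgaa
Dot1l, chr10:80793522-80793528, plus strand: gacttctACTACCTcagccacgacctatgc
Asxl2, chr12:3499207-3499213, plus strand: gagtaaataatgCTACCTAtgattttagaa
All coordinates are on GRCm38, the sequence of mm10. In Ezh2 and Dot1l the match begins at bases 6 and 8 of the UTR, just after the stop codon, and in Asxl2 at base 2196 of a UTR of 9841 bases. Of all 20999 genes with an annotated 3′ UTR, 10.4% held such a match. Among UTRs within 20% of its length the share was 3.28% for Ezh2 (402 bases), 14.0% for Dot1l (1947 bases) and 55.1% for Asxl2. A seed match is a description of sequence and does not show that the microRNA acts there, and the other 7 members were found without these letters only in the window searched.

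All 10 members were transcribed in every mouse, between 26.2 and 153 TPM. Each had a mean above 17.5 TPM, the median of the 15181 genes with a mean of at least 1 TPM, so all 10 passed that filter on low values. Their median was 6.03 ± 0.12 on the log2(TPM + 1) scale (SD, n = 3), against 4.19 ± 0.08 for those 15181 genes. By mean TPM they ran in the order Ezh2, Jarid2, Suz12, Asxl2, Asxl1, Eed, Ezh1, Bmi1, Dot1l and Men1. Of the 9 neighbouring pairs in that order, 5 had ranges over the mice that did not overlap: Ezh2 above Jarid2, Asxl1 above Eed, Eed above Ezh1 (53.1 TPM as the lowest Eed value and 53.0 TPM as the highest of Ezh1), Bmi1 above Dot1l, and Dot1l above Men1. The other 4 pairs, Jarid2 with Suz12, Suz12 with Asxl2, Asxl2 with Asxl1, and Ezh1 with Bmi1, did not differ beyond their spread. Of all 45 pairs of members, 40 stood in the same order in every mouse. Pairs of other genes were not counted in this way, so these pair counts describe the members and set them apart from no others.

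**Figure D1:**
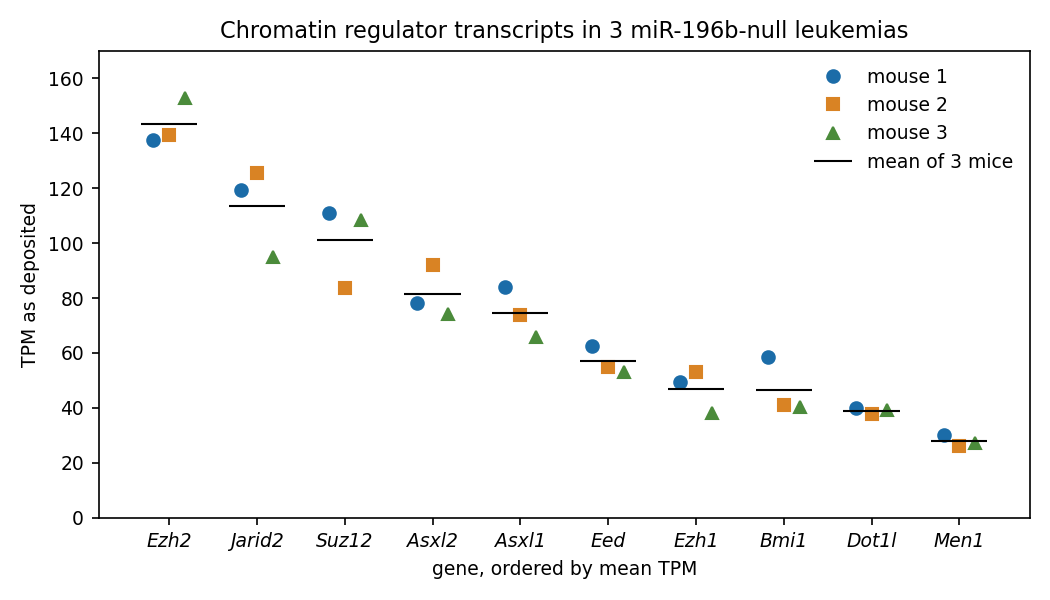
TPM as deposited (vertical axis, from 0) of the 10 genes in each of the 3 mice (points), with the mean (line), ordered by mean. Ezh2 stands highest, between 138 and 153 TPM, and Men1 lowest, between 26.2 and 30.1 TPM.

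Ezh2 was the most abundant member, with 138, 139 and 153 TPM in mice 1, 2 and 3. Its mean of 143 ± 8.39 TPM (SD, n = 3) was higher than that of 93.8% of expressed genes, and its values lay within 1.11-fold of each other on the TPM + 1 scale, or 1.23-fold after scaling the libraries to a common upper quartile. Ezh1, the alternative catalytic subunit, which is known to predominate in cells that divide little, had 49.3, 53.0 and 38.1 TPM. Its mean was 46.8 ± 7.76 TPM and mouse 3 stood lowest. The gene lies on chromosome 11 (101191115 to 101226463, minus strand) and Ezh2 on chromosome 6 (47530139 to 47595341, minus strand).

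The balance between the catalytic subunits was most uneven in mouse 3. Ezh2 exceeded Ezh1 by 2.79-fold in mouse 1, 2.63-fold in mouse 2 and 4.01-fold in mouse 3, a mean of 3.15 ± 0.757 (SD, n = 3). On the log2(TPM + 1) scale the ratio was 1.61 ± 0.32, and all 3 mice had more Ezh2 than Ezh1. The summed TPM of both genes was 187, 192 and 191 as deposited, a range of 1.03-fold, and 177, 194 and 200 after upper-quartile scaling, a range of 1.13-fold. Mouse 3 also had the highest value for all 6 proliferation genes looked at (Mki67, Top2a, Ccnb1, Cdk1, Pcna and Mcm5), whose summed TPM was 1232, 1130 and 1479, and for all 6 late neutrophil granule genes, summed at 2263, 6057 and 20415 TPM. All 6 erythroid genes, 4 of 5 B cell genes and 4 of 5 monocyte and macrophage genes were highest there as well, and these counts were the same after scaling. Of all expressed genes, 20.3% were highest in mouse 3 as deposited and 30.5% after scaling. The part of the cells behind these markers in the ratio was not tested.

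Suz12, the scaffold of the core, had 111, 83.6 and 108 TPM. Mouse 2 stood apart as the lowest, and the mean was 101 ± 15.1 TPM (SD, n = 3). Eed, the subunit that binds the finished mark, had 62.6, 55.0 and 53.1 TPM, a mean of 56.9 ± 5.04 TPM, with mouse 1 the highest. Suz12 stood 1.77-, 1.52- and 2.04-fold above Eed. Against the summed catalytic subunits, Suz12 transcripts amounted to 0.594, 0.435 and 0.568 and Eed transcripts to 0.335, 0.286 and 0.278 of their TPM. Transcript ratios of this kind say nothing of the ratio of the proteins in the complex.

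Rbbp7 and Rbbp4, histone-binding subunits that PRC2 shares with other complexes, complete the core. Rbbp7 averaged 230 ± 26.1 TPM and Rbbp4 141 ± 23.9 TPM (SD, n = 3), and mouse 1 was highest for both. Eed was the least abundant of the core genes but for Ezh1.

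Jarid2, the accessory subunit, had 119, 126 and 95.1 TPM, a mean of 113 ± 16.1 TPM (SD, n = 3), with mouse 3 the lowest. It was higher than each of the 5 other accessory genes listed, of which Aebp2, also an activator of the enzyme, was next with 89.1 ± 9.67 TPM and Phf19 lowest with 12.7 ± 1.26 TPM. Its log2(TPM + 1) ratio to Suz12 was 0.10, 0.58 and -0.19 in mice 1, 2 and 3, so their order was not the same in all mice. Epop, a PRC2 subunit known from stem cells, had the widest range of the accessory genes, with 21.4 TPM in mouse 1 and 9.12 and 7.74 TPM in mice 2 and 3.

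Bmi1, which supports the self-renewal of blood stem cells, had the widest SD between mice among the members, as deposited and after upper-quartile scaling (0.29 and 0.23 log2 units). It had 58.5, 41.2 and 40.4 TPM, a mean of 46.7 ± 10.2 TPM (SD, n = 3), with mouse 1 apart from mice 2 and 3, which differed little. Its highest value was 1.44 times the lowest on the TPM + 1 scale, and 1.32 times after scaling, where Suz12 (1.34-fold) and Ezh1 (1.33-fold) ranged more widely. The stem and progenitor genes Cd34, Gata2, Meis1 and Myb were likewise highest in mouse 1. They were 4 of 5 listed, Kit being the exception, with the same count after scaling to a common upper quartile. Meis1 is counted again below among the target genes. Of all expressed genes, 48.6% were highest in mouse 1 as deposited and 35.6% after scaling. The 5 stem and progenitor genes summed to 636, 471 and 492 TPM as deposited. Whether more immature cells in mouse 1 had a part in the Bmi1 value was not tested.

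Among the other PRC1 genes, all 22 listed were detected, meaning a mean of at least 1 TPM. Kdm2b, which brings a variant PRC1 to CpG-rich DNA, was the highest at 79.9 ± 6.35 TPM (SD, n = 3), and Cbx8, a reader of methylated H3K27, the lowest at 5.48 ± 1.68 TPM. Bmi1 (Pcgf4 by its family name) exceeded every other Pcgf gene on the list: Pcgf5 came next at 34.4 ± 7.72 TPM, and Pcgf2, its closest relative, had 20.7, 18.6 and 10.3 TPM. In mouse 3 the Pcgf2 value lay well under those of the other mice. As deposited, Pcgf5 (1.51-fold), Pcgf6 (1.52-fold) and Cbx8 (1.53-fold) were the remaining PRC1 genes whose highest mouse reached 1.5 times the lowest. Mouse 1 stood above the others for Pcgf5 and Pcgf6, and mouse 2 for Cbx8. After upper-quartile scaling, Pcgf5 and Pcgf6 fell under that mark.

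Asxl1 and Asxl2, exchangeable cofactors of the deubiquitinase Bap1, were close in level. Asxl1, a gene often mutated in human myeloid malignancies, had 84.1, 73.9 and 65.8 TPM, a mean of 74.6 ± 9.21 TPM (SD, n = 3). Asxl2 had 78.3, 92.2 and 74.0 TPM, a mean of 81.5 ± 9.48 TPM. The ratio of Asxl1 to Asxl2 was 1.08, 0.802 and 0.888, so Asxl1 was the higher gene in mouse 1 and Asxl2 in mice 2 and 3, and the log2 ratio of -0.13 ± 0.21 lay within its spread of 0. The third family member, Asxl3, stood at 0.0863 ± 0.00310 TPM and was the only one of the 53 other genes listed for these complexes and the H3K27 demethylases with a mean under 1 TPM.

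Of the 8 detected PR-DUB genes besides the members, Ogt, a glycosyltransferase bound to the complex, was highest at 131 ± 11.3 TPM (SD, n = 3). None of the 8 varied by 1.5-fold. The catalytic subunit Bap1 had 35.2, 27.8 and 29.8 TPM, less than either Asxl gene in every mouse.

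Dot1l had 39.8, 37.8 and 39.3 TPM, the narrowest range of the members as deposited. Its mean was 39.0 ± 1.04 TPM (SD, n = 3), and its SD of 0.04 log2 units was smaller than that of all but 2.40% of expressed genes. After upper-quartile scaling its SD was 0.065 log2 units, and Eed (0.054) and Men1 (0.062) were narrower. Each of its partners Mllt10, Aff1, Aff4 and Mllt3 had a higher mean, Mllt10, the cofactor needed for methylation of H3K79 beyond its first step, leading with 130 ± 11.8 TPM. Mllt1 was lowest of the 6 with 30.8 ± 4.46 TPM. Mllt6 had 46.0, 44.6 and 24.9 TPM and was the only partner whose highest mouse reached 1.5 times the lowest, mouse 3 standing apart below.

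Men1 was the least abundant member, with 30.1, 26.2 and 27.3 TPM. Its mean of 27.9 ± 2.01 TPM (SD, n = 3) still lay above that of 61.9% of expressed genes, and Dot1l exceeded it by 1.32-, 1.45- and 1.44-fold in mice 1, 2 and 3. Of the other menin and MLL complex genes, Psip1, the chromatin tether that menin binds, was highest at 89.9 ± 13.5 TPM and Rbbp5, a structural subunit, lowest at 25.3 ± 0.970 TPM. Kmt2a, which encodes MLL and stands in the table under its older symbol, had 33.1, 37.6 and 34.7 TPM, above Men1 in all 3 mice. None of the 7 varied by 1.5-fold.

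**Figure D2:**
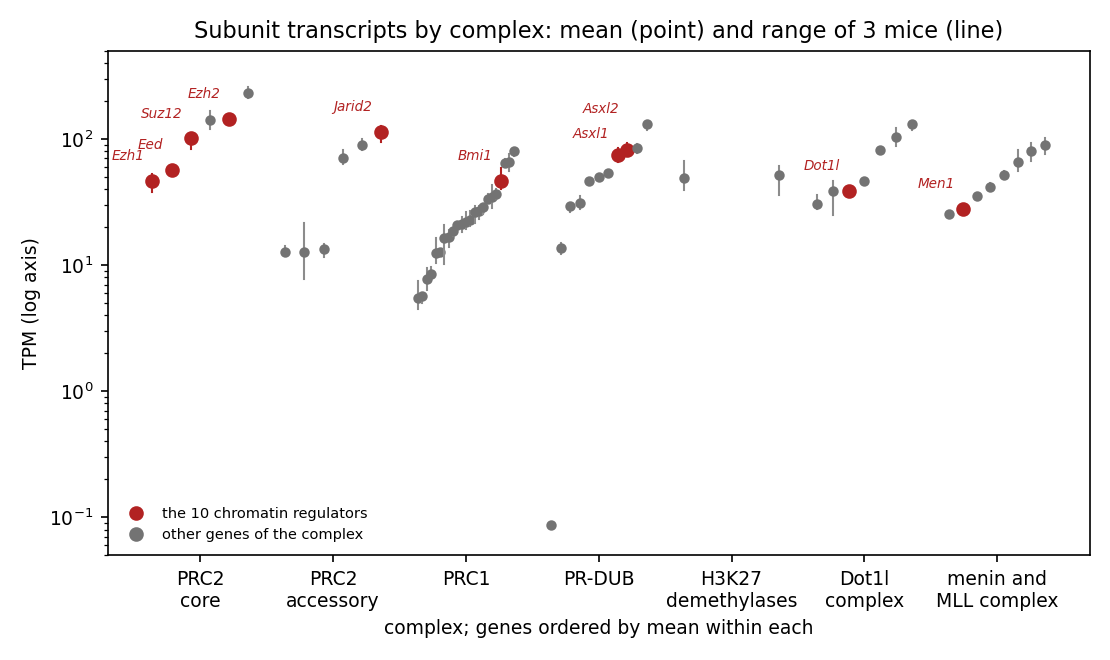
TPM on a log axis for the 10 members (red) and the 53 other genes of these complexes (grey, the H3K27 demethylases among them), grouped by complex, each as its mean (point) and the range of the 3 mice (line). Ezh1 is the lowest core gene of PRC2, Jarid2 the highest accessory gene, and Men1 lies near the lower end of its complex, while Asxl3 is the single gene far below the rest at 0.0863 TPM.

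None of the 10 members had a highest mouse at least 1.5 times the lowest on the TPM + 1 scale, against 27.2% of the 15181 expressed genes, a share that includes many genes of lower level. The members' range ran from 1.05-fold for Dot1l to 1.44-fold for Bmi1 with a median of 1.26-fold, against a median of 1.32-fold over all expressed genes. After upper-quartile scaling it ran from 1.07-fold for Eed to 1.34-fold for Suz12, with medians of 1.24-fold over the members and 1.29-fold over all. As deposited, Ezh1, Suz12 and Jarid2 lay between 1.32 and 1.38-fold. The median SD was 0.17 log2 units over the members and 0.21 over all expressed genes, and 6 of 10 members lay under the latter. Of the 52 detected other genes of these complexes 8 reached 1.5-fold (15.4%), and 6 did after scaling. With 10 members that all stand above the median level, these shares describe the genes and set them apart from no others.

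**Figure D3:**
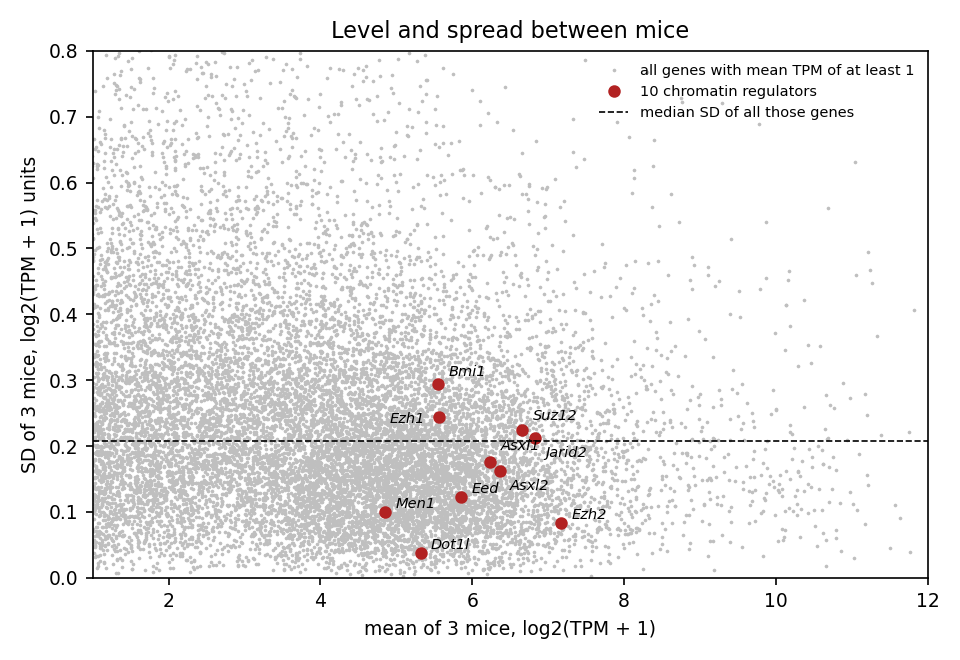
SD of the 3 mice against their mean, both on the log2(TPM + 1) scale, for the 10 members (red) and all genes with a mean of at least 1 TPM (grey; 512 lie outside the axes), with the median SD of the latter (dashed). Dot1l has an SD of 0.04 and Bmi1 one of 0.29, and 6 of the 10 members lie under the dashed line.

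Which mouse stood highest depended on the scaling. As deposited, 6 of 10 members were highest in mouse 1 (Suz12, Asxl1, Eed, Bmi1, Dot1l and Men1), 3 in mouse 2 (Jarid2, Asxl2 and Ezh1) and Ezh2 in mouse 3. This followed the whole table, in which 48.6%, 31.1% and 20.3% of expressed genes were highest in mice 1, 2 and 3. Likewise 6 members were lowest in mouse 3, against 42.6% of expressed genes. After scaling to a common upper quartile, which moved mice 1, 2 and 3 by -0.08, 0.01 and 0.06 log2 units, 3 members were highest in mouse 1, 3 in mouse 2 and 4 in mouse 3. These counts lay near the shares of all expressed genes after scaling, which were 35.6%, 34.0% and 30.5% in mice 1, 2 and 3. The placings that held under both were Bmi1, Asxl1 and Eed highest in mouse 1, Jarid2, Asxl2 and Ezh1 highest in mouse 2, and Ezh2 highest in mouse 3, while Suz12, Dot1l and Men1 passed to mouse 3. Suz12 remained lowest in mouse 2, and Jarid2, Asxl1 and Ezh1 remained lowest in mouse 3.

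**Figure D4:**
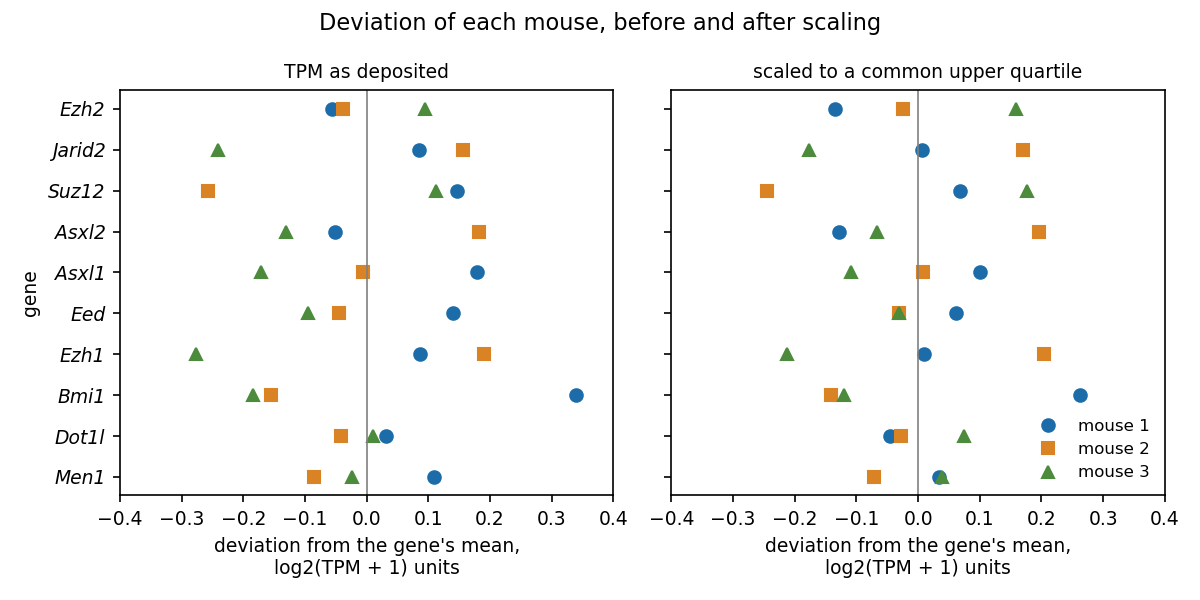
Deviation of each mouse from the gene's mean on the log2(TPM + 1) scale, for the values as deposited (left) and after scaling to a common upper quartile (right). Bmi1 in mouse 1 is the largest deviation above the mean in both panels (0.34 and 0.26), and the low values of Ezh1 and Jarid2 in mouse 3 and of Suz12 in mouse 2 are seen in both.

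As deposited, Ezh1, Jarid2 and Asxl2 shared the order of mice, with mouse 2 highest and mouse 3 lowest. Their deviations from the mean were 0.09, 0.19 and -0.28 log2 units for Ezh1, 0.08, 0.16 and -0.24 for Jarid2, and -0.05, 0.18 and -0.13 for Asxl2. After scaling Asxl2 was lowest in mouse 1. Of the detected genes in the other complex lists, Aff4, Rbbp5 and Bcorl1 lay nearest to Ezh2 in their centred values over the 3 mice, at Euclidean distances of 0.06, 0.09 and 0.10 log2 units. These distances are of the values as deposited, and 3 mice are too few for such likeness to say more.

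The demethylases Kdm6a and Kdm6b remove the mark that PRC2 writes. As deposited they ranged more widely (1.69- and 1.71-fold) than Ezh1, Ezh2, Eed, Suz12 and Jarid2, though less than Epop (2.57-fold). Kdm6a had 59.5, 60.9 and 35.7 TPM, with mouse 3 apart below the others. It is X-linked and known to escape X inactivation, and its Y-linked relative Uty stood at 5.82, 9.68 and 42.5 TPM. Ddx3y and Eif2s3y, also Y-linked, were likewise highest in mouse 3. In mice 1, 2 and 3 Ddx3y had 0.683, 0.456 and 27.4 TPM, and Eif2s3y had 2.162, 1.246 and 91.65 TPM. The sex of the mice is not in the labels and its part in the Kdm6a values was not tested. Kdm6b had 39.1, 67.4 and 41.6 TPM, with mouse 2 apart above the others.

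Genes known as targets of these regulators were read beside them. Meis1 had 56.3, 40.1 and 34.0 TPM, Hoxa9 34.2, 21.6 and 22.5 TPM and Hoxa7 24.5, 17.6 and 14.8 TPM, mouse 1 being highest in each. Mecom, a stem cell transcription factor gene, had 21.5, 14.4 and 10.2 TPM with the same mouse highest. Hoxa10 averaged 2.19 ± 0.718 TPM and Pbx3 7.25 ± 0.461 TPM (SD, n = 3). The Polycomb-repressed inhibitors Cdkn2a and Cdkn2b had means of 0.259 ± 0.162 and 0.537 ± 0.385 TPM, both under the detection threshold. Of the 8 target genes 6 were highest in mouse 1 as deposited and 5 after scaling, against 48.6% and 35.6% of expressed genes. Cdkn2a and Cdkn2b were highest in mouse 2 under both, and Pbx3 passed to mouse 2 on scaling.

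Marker genes describe the cells behind these values. Of the 5 stem and progenitor genes, Kit, the gene of the enrichment marker, had 141 ± 8.10 TPM (SD, n = 3) and Gata2, the lowest, 44.3, 16.8 and 16.9 TPM. The dendritic cell genes summed to between 409 and 732 TPM, Flt3 included. The sums of late neutrophil granule genes differed by 9.02-fold between mice. Of the 5 B cell genes 3 were detected, with sums of 4.15 to 7.94 TPM, and of the 6 erythroid genes 5, with sums of 28.0 to 80.5 TPM. T and NK cell genes summed to between 113 and 162 TPM, nearly all of it Nkg7, while Cd3e and Cd3g had means of 0.653 and 0.476 TPM. Monocyte and macrophage genes summed to between 90.1 and 161 TPM. No defining marker was at 0 in all mice, and the part of these cells in the members' values was not tested.

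The start sites of the members were rich in CpG pairs. Over the 300 bases around each of the 13 RefSeq promoters listed for the 10 genes (GRCm38.p6), the number of CpG pairs ranged from 11 at a start of Men1 to 49 at Dot1l, with a median of 23, against a median of 7 over all 32851 promoters. Their GC content had a median of 62.7%, against 52.7% over all. Such CpG-rich promoters are usual for genes active in many tissues, and the count was set against all promoters without matching on expression.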

How the data were processed

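RNA of 3 c-Kit-enriched leukemias, 1 group, was sequenced as stranded, paired-end reads of 150 nt from RNA with an integrity number above 8, per the labels' protocols, which name both ribosomal depletion and an mRNA kit. The submitters' processing notes name kallisto and the build mm10; the annotation is not given in the sources used here. The authors deposited linear values by gene symbol, read here as TPM although the table's name calls them log2 FPKM, since the columns summed to 927169 to 929731 and none was below 0. The 3 other per-sample columns were not used. Of 28987 rows, 795 without a symbol (at most 0.608% of a column sum) and 27 with a date for a symbol were left out, and 90 repeated symbols were summed. TPM keeps no depth, so no counting interval can be given.

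Levels were put on the log2(TPM + 1) scale, with detection at a mean TPM of 1 and a range of 1.5-fold on the TPM + 1 scale as the mark of a gene that varied. The code for the range count and the scaling was checked on simulated data with large planted changes and less noise than these data. That check does not bear on the counts reported here. With 1 group no test was run. Exons of 5 members (Ezh2, Eed, Suz12, Asxl1 and Asxl2) overlap a gene on the opposite strand in GENCODE M21, and whether quantification used the strand is not given in the sources used here. Of those partners 2500004C02Rik (Asxl1) had 7.04 to 9.36 TPM and 1110002L01Rik (Asxl2) 1.59 to 1.89 TPM. Of the listed pathway genes 3 were matched by older symbols (Mll1 for Kmt2a, Wbp7 for Kmt2b and E130012A19Rik for Epop), and the marker Adgre1 as Emr1. The members and lists were chosen with earlier results of these data known. Named genes are the members, the highest and lowest gene of each pathway list, any with a 1.5-fold range, all target genes and the 3 nearest to Ezh2. Other genes, such as Bap1, Kmt2a, Aff1, Mllt3, Uty, Ddx3y and Eif2s3y, were named after their values were seen. Alternatives covered the pseudocount, the fold, the detection threshold, repeated symbols, upper-quartile scaling and each mouse left out. The tools were Python 3.11.15 with pandas 2.3.3, numpy 2.4.6 and matplotlib 3.10.9.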

Additional observations from a re-analysis of the deposited data

How the results depend on the processing

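The number of members highest in mouse 1 was 6 as deposited and 3 after scaling to a common upper quartile, which lowers that library by 0.08 log2 units by construction. The other summary values shifted by under 1 SD of the mice in every alternative run for them: the median member level (6.03) lay between 5.96 and 6.08 with a mouse left out, the Ezh2 to Ezh1 log2 ratio (1.61) between 1.42 without mouse 3 and 1.72 without mouse 2, and the Asxl1 to Asxl2 log2 ratio (-0.13) between -0.24 and -0.03. The count of members with a 1.5-fold range was 0 under each alternative. It could not rise with a mouse left out or with a higher fold. Of 61 listed pathway and target genes 58 were detected, 57 at a mean TPM of 5. Member levels kept within their SD in 50 of 50 recomputations. For these levels, the median level and the ratios, leaving out 1 of 3 mice cannot shift a mean by 1 SD. Upper-quartile scaling keeps the mean of the mice nearly fixed by construction. Only the change of pseudocount could therefore have moved them by that much. No paired analysis was possible because all samples form 1 group. With TPM alone, the counting error within the differences between mice cannot be given.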
